A study of Drosophila montana with 23 samples.

Results

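The difference in gene expression between diapausing and non-diapausing females of Drosophila montana was compared between 2 ages, 50 and 150 days, over the 218 genes that could be read from a custom microarray. For each gene the diapause effect is the mean log2 intensity of diapausing females minus that of non-diapausing females of the same age, and the change is the effect at 150 days minus the effect at 50 days. A positive change says that diapausing females stood higher, relative to non-diapausing females, at 150 days than at 50 days. All 218 genes were tested whatever their values, while the genes named below were picked from them by the size of their change, by list or by the study's interest. The change uses the 12 arrays of the 4 groups, out of 23 arrays in the series. All females came from the isofemale line 175OJ8, and each array held Cy3-labelled RNA of 2 whole females pooled. The 50D females (diapausing, 50 days, autumn) and the 150D females (diapausing, 150 days, winter) had entered the climate chamber under the short days of late August. The 50ND females (non-diapausing, 50 days, summer) had entered it under the long days of July and were in full vitellogenesis, the stage at which yolk is laid down. The 150ND females (non-diapausing, 150 days, winter) had first been kept for 10 days in constant light at 19 °C so that their ovaries matured, and were moved to the chamber in September conditions. At 150 days both states were thus sampled in the same winter conditions, constant darkness at 4 °C. At 50 days the states differed in season, and both were under daily cycles of light and temperature. Age, season, light, temperature and the way the non-diapausing females were obtained cannot be told apart in the change.

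Reproductive diapause of northern Drosophila is a dormancy of adult females in which the ovaries stop before yolk is deposited, and it is set by short days. Reserves are stored, feeding and digestion are reduced, membranes are remodelled by fatty acid desaturases, and chaperones and other stress proteins keep cells intact in the cold. Light reaches the fly through phototransduction, in which rhodopsins activate a phospholipase C and open the TRP and TRPL cation channels. The roles given to genes here are those known in Drosophila melanogaster.

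Each group had 3 arrays, 1 of every group on each of 3 slides. On the 12 arrays 63.5% to 90.1% of the gene spots stood well above background, the highest share on 150D replicate b. One array stood apart within its group: 150ND replicate c differed from the 2 other 150ND arrays by a mean of 0.69 and 0.83 log2 per gene, and from the 150D arrays by 0.48 to 0.54. The remaining 150-day arrays differed by 0.27 to 0.49 within a state and by 0.80 to 0.94 between states. At 50 days arrays of 1 state differed by 0.22 to 0.32 and arrays of different states by 0.80 to 1.09. On 150ND replicate c the 8 listed genes that ovaries express or that mothers load into eggs had a mean of 11.16 log2, against 12.19 and 12.38 on the other 150ND arrays, 12.03 to 12.30 in 50ND, 10.58 to 10.75 in 50D and 10.61 to 10.82 in 150D. None of these genes is specific to the ovary, the array held no yolk protein gene, and the part of this array's ovary-related level in the results was not tested. Many values below are therefore also given without this array. Outside the 4 groups, 7ND replicate c (non-diapausing, 7 days) had 98.5% of its spots above background and a median intensity of 530. It entered through the spread that all groups share. The normalization and the choice of each gene's brightest probe, made over all 23 arrays, included it too. RNA of whole females was measured, so fewer cells of a type and less RNA per cell cannot be told apart.

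The diapause effect changed in 9 of 218 genes (4.13%), upward in 4 (1.83%) and downward in 5 (2.29%), at a Benjamini-Hochberg adjusted p under 0.05 in limma. The 4 were Jon25Bi, ninaD, Adh and CG34366, which were lower in diapausing females at 50 days and no longer lower at 150 days. The 5 were CG9747, trpl, for, Hsr_omega and regucalcin, which were higher in diapausing females at 50 days. Differences between states at 1 age, or between ages in 1 state, also had to reach 2-fold to be called, and by that rule all 9 genes passed the test at 50 days but only ninaD at 150 days, in the opposite direction. Of all 218 genes, 61 (28%) were called at 50 days and 21 (9.63%) at 150 days. All 9 changes were also called without 150ND replicate c, with CG17928 as a 10th (4.59%, of which 5 higher and 5 lower, 2.29% each). An unadjusted p under 0.05 was reached by 28 genes. When 7ND replicate c was left out of the shared spread 19 genes (8.72%, with 3.21% higher and 5.5% lower) passed, the 9 among them. With normalization, probe choice and fit all limited to the 12 arrays 22 passed.

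**Figure D1:**
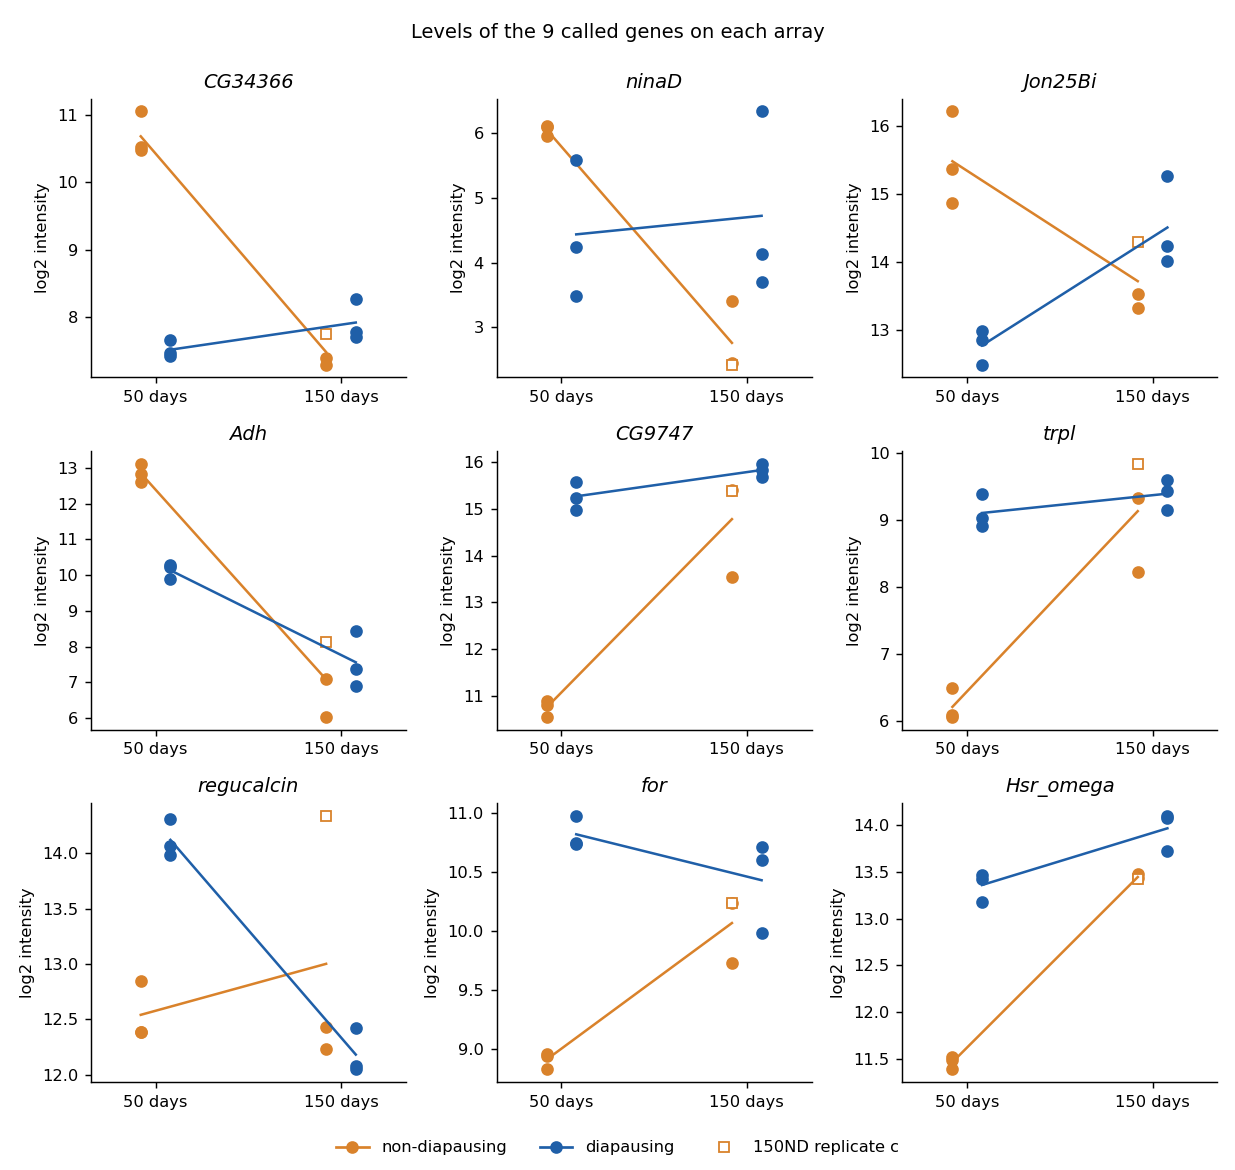
Log2 intensity of the 9 genes whose diapause effect changed, on each of the 12 arrays, at 50 and 150 days, with non-diapausing females in orange, diapausing females in blue, 150ND replicate c as an open square and lines joining the group means. The lines are far apart at 50 days in every panel and close or crossed at 150 days, and in all panels but that of regucalcin the orange line passed the test for a change with age.

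The arrays of the 2 states did not overlap in any of the 9 genes at 50 days, as in 160 of all 218 genes (73.4%), and at 150 days they did not overlap in ninaD, CG9747 and Hsr_omega, as in 71 of all genes (32.6%).

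The 2 measured genes of the gut list were among the 4 of all 218 genes (1.83%) with a called positive change. Jon25Bi, a serine protease of the Jonah family that digests protein in the midgut, had levels of 15.36, 14.86 and 16.22 log2 in 50ND and 12.85, 12.49 and 12.98 in 50D. At 150 days the levels were 13.32, 13.53 and 14.30 in 150ND and 14.02, 15.26 and 14.24 in 150D. All 50D arrays were thus below all 50ND arrays, whereas at 150 days the groups overlapped. The effect was −2.71 ± 0.46 (SE, 3 arrays a group) at 50 days and 0.79 ± 0.46 at 150 days, a change of 3.50 ± 0.65 (adjusted p = 0.005), or 3.79 without 150ND replicate c. Jon25Bi moved with age in both states, by −1.76 log2 in non-diapausing females (adjusted p = 0.015) and by 1.73 in diapausing females (adjusted p = 0.023). The other 9 probes of the gene all gave a positive change, of 2.07 to 4.41. The change was not called on the 75th percentile (2.87, adjusted p = 0.053) or without normalization between arrays (2.72, adjusted p = 0.063). The rise in diapausing females was 0.53 log2 with spike-in scaling, 1.29 on the 75th percentile and 0.98 without normalization, and was called in none of these.

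The second gut gene was ninaD, a class B scavenger receptor needed for the uptake of carotenoids, from which the chromophore of rhodopsin is made. The study also annotates ninaD with phototransduction, but it is not among the 19 phototransduction genes counted below. It was dim throughout, at 6.11, 5.96 and 6.09 log2 in 50ND, 5.58, 4.24 and 3.49 in 50D, 3.41, 2.45 and 2.42 in 150ND, and 3.70, 6.34 and 4.13 in 150D. No 150ND array was well above background, whereas all 3 arrays of each other group were. The order of the states turned over, with 50D below 50ND and 150D above 150ND on every array. The measured change was 3.58 ± 0.85 (adjusted p = 0.012). With 150ND set no lower than the dimmest probe above background on each array, the mean of 150D was 2.18-fold above 150ND. The change was then 2.74 log2. Both values leave out the spread between arrays and hold only for this probe and this background handling. The change was not called without 50D replicate c (3.11, adjusted p = 0.053), under normexp background correction (0.83, adjusted p = 0.65) or with the mean of all probes (1.45, adjusted p = 0.069). The effect at 150 days was not called without 150ND replicate c (1.79, adjusted p = 0.068). The third gut gene listed, Jon66Cii, had no probe.

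Adh encodes alcohol dehydrogenase, an abundant enzyme of the fat body and gut. Its levels were 12.62, 13.12 and 12.82 log2 in 50ND, 10.29, 9.89 and 10.23 in 50D, 7.10, 6.03 and 8.12 in 150ND, and 6.90, 8.42 and 7.37 in 150D. Adh fell with age in both states, by 5.77 ± 0.47 log2 in non-diapausing females, a 54.6-fold decrease, and by 2.57 ± 0.47 in diapausing females, a 5.95-fold decrease (adjusted p = 5.2e-08 and 0.0017). The larger fall in the non-diapausing females left the states overlapping at 150 days, so that the effect went from −2.72 to 0.48 ± 0.47, a change of 3.20 ± 0.66 (adjusted p = 0.006) or 3.72 without 150ND replicate c. All 5 other probes of Adh gave a change of 2.08 to 3.04, and the change was called in all 24 alternative settings.

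CG34366 (Shawl), a voltage-gated potassium channel gene, also had a positive change. The levels were 10.47, 10.51 and 11.05 log2 in 50ND and lay between 7.29 and 8.27 on all 9 arrays of the other 3 groups. The high level was thus confined, among these 4 groups, to non-diapausing females in summer, and it was 9.17-fold lower in 150ND than in 50ND (adjusted p = 0.00028). The effect was −3.16 ± 0.51 at 50 days and 0.44 ± 0.51 at 150 days. The change was 3.60 ± 0.72 (adjusted p = 0.006), or 3.73 without 150ND replicate c. The 5 other probes that were above background had the same sign but far smaller changes, of 0.14 to 1.08, and with the mean of all probes the change was 1.05 and not called (adjusted p = 0.39).

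Among the genes whose effect fell, CG9747, a predicted acyl-CoA desaturase, had the largest diapause effect of any gene called higher at 50 days. Its levels were 10.89, 10.80 and 10.54 log2 in 50ND against 14.98, 15.58 and 15.24 in 50D, a 23.1-fold difference with a 95% interval of 11.8 to 45.1. At 150 days they were 13.54, 15.40 and 15.39 in 150ND and 15.84, 15.69 and 15.97 in 150D. Diapausing females were the higher ones on every array at both ages, but the difference at 150 days was only 2.08-fold (95% interval 1.06 to 4.06). Diapausing females stayed near their level (0.56 ± 0.46 log2, adjusted p = 0.61), whereas non-diapausing females rose by 4.04 ± 0.46 (adjusted p = 4.1e-06). The change of −3.47 ± 0.65 (adjusted p = 0.005), or −3.17 without 150ND replicate c, was called in all 24 alternative settings. All 7 other probes had its sign, with changes from −3.60 to −0.36.

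The gene trpl, whose product is one of the 2 light-activated cation channels of the photoreceptor, followed the same course. Its levels were 6.05, 6.08 and 6.48 log2 in 50ND, 9.02, 9.39 and 8.90 in 50D, 9.33, 8.21 and 9.84 in 150ND, and 9.59, 9.15 and 9.44 in 150D. Only the 50ND arrays were low, and at 150 days the states overlapped. The rise with age in non-diapausing females was 7.60-fold (adjusted p = 9.4e-05), against 1.22-fold in diapausing females (adjusted p = 0.81). The effect of 2.90 ± 0.42 at 50 days came down to 0.26 ± 0.42, a change of −2.64 ± 0.60 (adjusted p = 0.010) or −2.28 without 150ND replicate c, and it too was called in all 24 alternative settings. The 5 other probes above background had the same sign, with changes ranging widely, from −3.38 to −0.09.

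The foraging gene, for, encodes a cGMP-dependent protein kinase that acts on feeding and locomotion. It stood at 8.94, 8.96 and 8.83 log2 in 50ND, 10.98, 10.74 and 10.75 in 50D, 9.73, 10.24 and 10.24 in 150ND, and 10.71, 9.98 and 10.60 in 150D. The 150ND arrays lay between those of 50ND and the higher arrays of both diapausing groups, with 150D replicate b among them. The effect fell from 1.91 ± 0.23 to 0.36 ± 0.23, a change of −1.55 ± 0.32 (adjusted p = 0.006), or −1.46 without 150ND replicate c. Of 7 other probes 6 had the same sign. The call was lost when arrays were scaled on spike-in probes (−1.52, adjusted p = 0.44) and with the mean of all probes (−0.88, adjusted p = 0.12).

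The 2 stress-related genes differed in which state moved. Hsr_omega, a noncoding nuclear RNA that accumulates after heat shock, stood at 11.39, 11.49 and 11.52 log2 in 50ND and at 13.18 to 14.10 on all other 9 arrays. It rose 3.94-fold with age in non-diapausing females (adjusted p = 4.1e-06). Its effect went from 1.89 ± 0.22 to 0.52 ± 0.22, a change of −1.37 ± 0.31 (adjusted p = 0.010), or −1.38 without 150ND replicate c. Only 2 of its 5 other probes had the same sign, with changes from −1.30 to 0.40, and the change was not called with the mean of all probes (−0.47, adjusted p = 0.84), on the 75th percentile (−1.68, adjusted p = 0.081) or on spike-in probes (−1.54, adjusted p = 0.40). Regucalcin, a calcium-binding protein gene that is induced by cold acclimation, had 12.38, 12.39 and 12.85 log2 in 50ND, 14.31, 14.07 and 13.99 in 50D, 12.43, 12.23 and 14.34 in 150ND, and 12.42, 12.07 and 12.05 in 150D. Here the diapausing females fell, 3.84-fold from 50D to 150D (adjusted p = 0.004), while 2 of the 3 150ND arrays stayed at the 50ND level and replicate c was at the 50D level. The change was −2.40 ± 0.55 (adjusted p = 0.010) and −1.73 without replicate c (adjusted p = 0.007), 11 of 15 other probes had its sign, and it was not called on the 75th percentile (−2.55, adjusted p = 0.081), on spike-in probes (−2.41, adjusted p = 0.20) or with the mean of all probes (−1.16, adjusted p = 0.30).

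In 8 of the 9 genes the level of the non-diapausing females was called as changed between 50 and 150 days, and in 3 (Adh, Jon25Bi and regucalcin) that of the diapausing females. Of all 218 genes, 25 (11.5%) were called between 150ND and 50ND and 15 (6.88%) between 150D and 50D. The former were 7.8% higher and 3.67% lower at 150 days, and the latter 2.29% higher and 4.59% lower. The split depends on the scaling for some genes. On spike-in probes the median of all genes was −0.84 log2 from 50ND to 150ND and −0.73 from 50D to 150D, while the median change of the effect was 0.08. Under that scaling Adh, CG34366, CG9747, trpl, ninaD and Jon25Bi were still called with age in non-diapausing females, in the same direction, and for (0.28 log2) and Hsr_omega (0.83 log2) were not. Jon25Bi was not called in non-diapausing females on the 75th percentile (−1.58, adjusted p = 0.085) or without normalization between arrays (−1.74, adjusted p = 0.070). In the latter setting for was not called in non-diapausing females (1.02, adjusted p = 0.099).

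**Figure D2:**
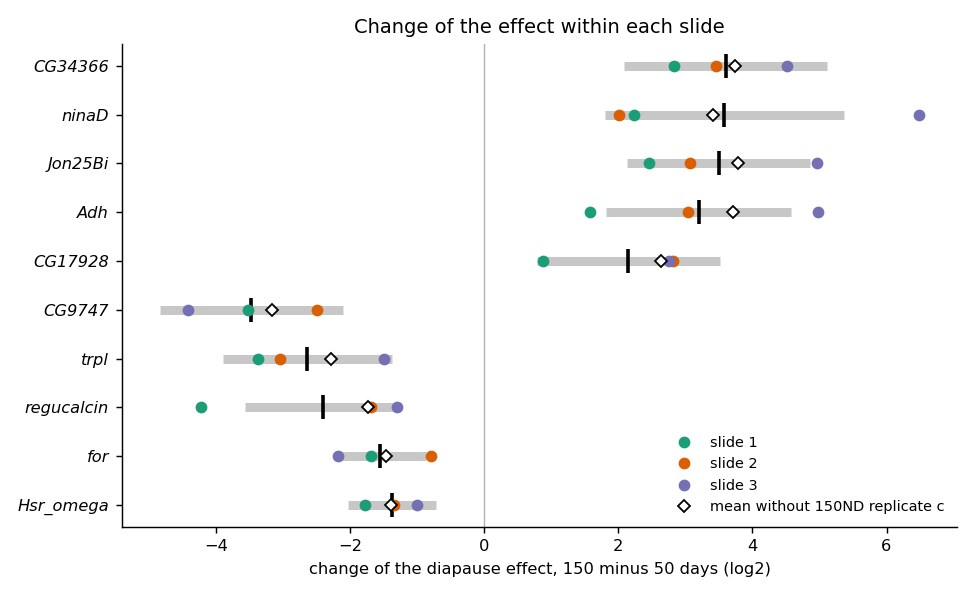
Change of the diapause effect (log2, 150 minus 50 days) for the 9 called genes and CG17928, with coloured points for the value within each of the 3 slides, a black bar for the value over the 12 arrays, a grey band for its 95% interval and a diamond for the value without 150ND replicate c. All 3 slides gave the same sign for each gene, with the widest range for ninaD, 2.02 to 6.49.

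Since each slide held 1 array of each group, the change could be computed within a slide. All 9 called genes kept their sign on all 3 slides, as did 76 of all 218 genes. The 9 had been called on these same arrays, so their shared sign is no separate test. The slide with 150D replicate b gave the highest values for Jon25Bi (4.96), Adh (4.98) and ninaD (6.49), and the slide with 150ND replicate c the largest fall for regucalcin (−4.22).

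Over all 218 genes the diapause effects at the 2 ages, which share no array, had a Pearson correlation of 0.70 and a Spearman correlation of 0.66 across genes, and 171 genes had the same sign at both ages. Genes are not independent replicates, and no p is attached to these values. The mean absolute effect was 0.92 log2 at 50 days and 0.62 at 150 days, and 148 genes had the smaller effect at 150 days. Without 150ND replicate c these were 0.81 at 150 days and 119 genes, with a Pearson correlation of 0.75. The number of genes called at 150 days depended on that group too, with 39 (17.9%) without 150ND replicate c, 7 without replicate a and 10 without replicate b. Of the 61 genes called at 50 days, 15 were called in the same direction at 150 days, or 23 without replicate c.

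**Figure D3:**
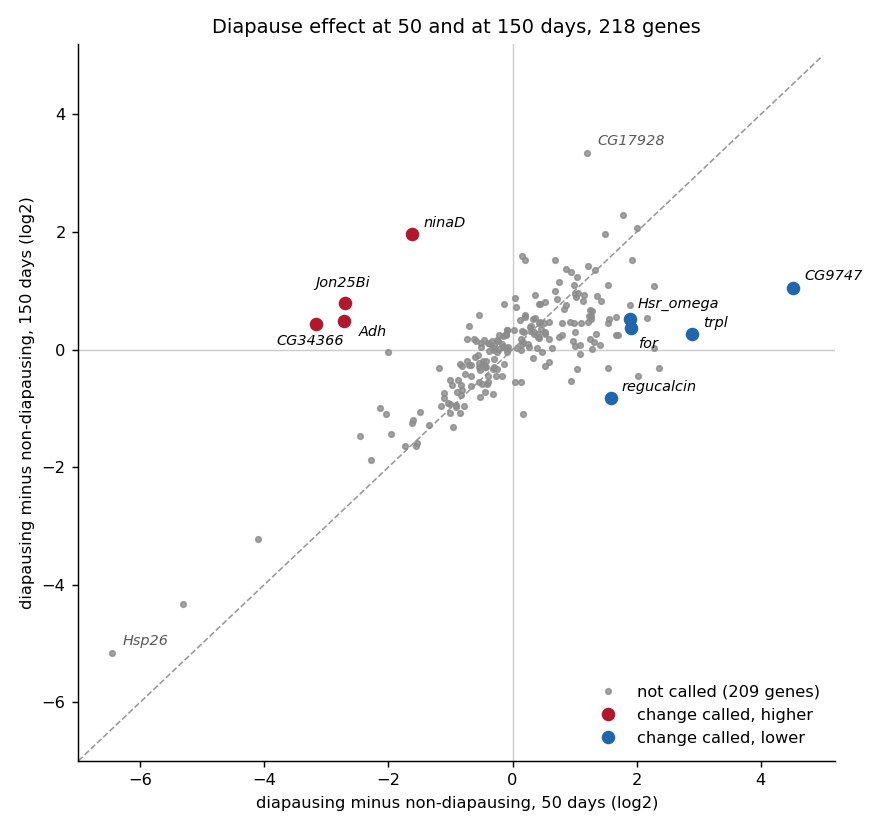
Diapause effect (log2, diapausing minus non-diapausing) of 218 genes at 50 days on the x axis and at 150 days on the y axis, with equal effects on the dashed line and the genes with a called change in red (higher) and blue (lower). Of the 9 called genes only CG9747 (1.05) and ninaD (1.96) had an effect of more than 1 log2 at 150 days, whereas Hsp26 and CG17928 kept large effects at that age.

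Of the 19 phototransduction genes 1 passed the test for the change, trpl, against 4.13% of all genes. At 50 days 8 were called higher in diapausing females and none lower, against 17.4% of all genes called higher, and the median effect was 0.93 log2 against 0.10 over all genes. At 150 days none was called, with 5.05% of all genes called higher and 4.59% lower. The median effect was 0.26, with 17 of the 19 effects above 0, against 131 of all 218 genes. Without 150ND replicate c inaC was called higher and the median was 0.59. The change was below 0 in 17 of the 19, against 100 of all 218 genes. The median change was −0.68 against 0.07 over all genes, and −0.40 without that array. The rhodopsin genes Rh3 (−1.45 ± 0.67) and Rh5 (−1.18 ± 0.53), the protein kinase C gene inaC (−1.14) and the channel gene trp (−0.94) had an unadjusted p under 0.05 but an adjusted p of 0.35 to 0.36. These genes varied widely among the 150ND arrays, as Rh3 showed with 10.49, 8.83 and 10.80 log2, replicate b being at the level of 50ND (8.66, 8.59 and 9.43). The 9 photoreceptor markers had a mean of 10.29, 9.13 and 10.57 log2 on the 3 150ND arrays, against 9.46 to 10.12 in 50ND, 10.58 to 10.85 in 50D and 10.12 to 10.22 in 150D. The median change was −1.25 and −1.12 on the slides with 150ND replicates c and a, and 0.33 on the slide with replicate b.

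**Figure D4:**
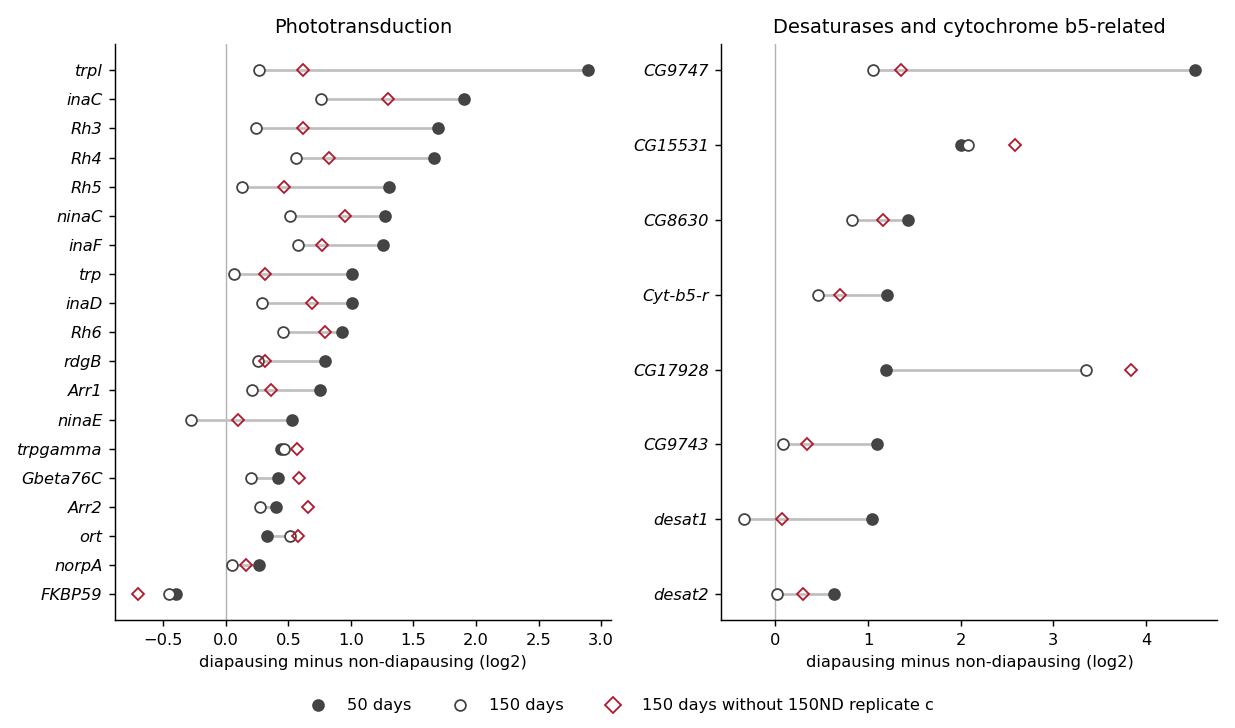
Diapause effect (log2) of 19 phototransduction genes and 8 desaturase and cytochrome b5-related genes at 50 days (filled circle), at 150 days (open circle) and at 150 days without 150ND replicate c (red diamond). Most open circles lie to the left of the filled ones, and CG17928 lies to the right, with 1.20 at 50 days and 3.35 at 150 days.

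Fatty acid desaturases add double bonds to fatty acids, which alters membranes and stored fat. All 8 measured members of this list had a positive effect at 50 days, as did 114 of all 218 genes, and 6 were called higher, against 17.4% of all genes. At 150 days CG15531 and CG17928 were called higher, against 5.05% of all genes, and without 150ND replicate c CG8630 as well, against 9.17%. The median effect was 1.20 at 50 days and 0.65 at 150 days, or 0.93 without that array. Its members did not change alike. CG9747 fell, as given above. desat1, the main delta-9 desaturase, had 14.92, 15.25 and 15.64 log2 in 50ND, 16.10, 16.39 and 16.46 in 50D, 14.50, 14.61 and 15.77 in 150ND, and 14.54, 14.47 and 14.85 in 150D. Its change of −1.38 ± 0.44 did not pass (adjusted p = 0.098), and only 3 of 7 other probes had that sign. CG15531 had nearly the same effect at both ages, 2.0 and 2.07, with a change of 0.07 and a 95% interval of −1.30 to 1.45.

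CG17928, a predicted desaturase, went the other way. Its levels were 6.83, 6.58 and 7.73 log2 in 50ND, 8.24, 7.99 and 8.50 in 50D, 4.94, 5.76 and 6.82 in 150ND, and 9.17, 9.29 and 9.11 in 150D. Diapausing females were higher on all arrays at both ages, and the effect was 1.20 ± 0.46 at 50 days and 3.35 ± 0.46 at 150 days, a 10.2-fold difference. The change was 2.15 ± 0.65 (adjusted p = 0.086) and was called without 150ND replicate c (2.64, adjusted p = 0.015).

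The heat shock proteins and chaperones, 26 genes, included the largest diapause effects on the array, and these were present at both ages. Hsp26, a small heat shock protein gene that is also expressed in the ovary, was at or within 0.02 log2 of the highest value that normalization allows (17.36) on the 50ND arrays and on 150ND replicates a and b, at 15.78 on 150ND replicate c, and at 10.65 to 11.24 in 50D and 11.52 to 11.75 in 150D. Its effects of −6.46 and −5.16 thus rest on that ceiling. Its change was 1.30 ± 1.16 (adjusted p = 0.84). Hsp23 (effects −5.31 and −4.33) and Hsp67Bc (−4.10 and −3.23) were also lower at both ages, and neither change was called. Besides Hsr_omega no member was called for the change, and the list's median of 0.23 became 0.04 without 150ND replicate c and −0.24 without normalization between arrays. Hsf, the heat shock transcription factor, had 5.09 to 5.80 log2 in 150D, below the other groups except 1 150ND array (5.76 to 7.30 in 150ND, 6.86 to 7.47 in 50D and 6.5 to 7.38 in 50ND), and a change of −1.27 ± 0.52 (adjusted p = 0.32).

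Among cold-response and antioxidant genes, Frost (Fst), which is induced during recovery from cold, stood at 8.37, 7.60 and 7.99 log2 in 50ND, 9.66, 10.90 and 10.24 in 50D, 9.90, 10.30 and 11.18 in 150ND, and 10.24, 10.74 and 10.48 in 150D. Only 50ND was low, as for trpl, but the change of −2.26 ± 0.79 did not pass (adjusted p = 0.17). With normalization, probe choice and fit limited to the 12 arrays the change of Fst passed (−2.30, adjusted p = 0.016). Eip71CD, a methionine sulfoxide reductase gene, had an effect of 0.16 at 50 days and 1.59 at 150 days. Its change of 1.43 ± 0.52 had an adjusted p of 0.20, but it passed on the 12 arrays alone (1.47, adjusted p = 0.040). Catalase (Cat) had effects of 1.92 and 1.53 and a change of −0.39 ± 0.80.

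In the 14 clock genes the median change was −0.07, and none was called. The largest value was that of vri, a repressor in the second loop of the clock, at −2.47 ± 1.07 (adjusted p = 0.35), and only 1 of its 5 other probes had that sign. On the 12 arrays alone the change of vri passed (−2.54, adjusted p = 0.0083). period (per) had 5.34 to 5.59 log2 in 50ND, 7.65 to 7.91 in 50D, 6.75 to 7.23 in 150ND and 7.93 to 8.09 in 150D. Diapausing females were higher on all arrays at both ages, by 4.84-fold at 50 days and 2.11-fold at 150 days, and the change of −1.19 ± 0.61 did not pass (adjusted p = 0.43). jetlag (jet), an F-box protein gene that resets the clock by light, changed by −1.33 ± 0.77 (adjusted p = 0.57).

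7ND replicate c was also left out of the spread, but not of the normalization and probe choice. The values then stayed the same and 10 further genes passed. They were CG17928 and desat1, the clock genes per and jet (adjusted p = 0.023 and 0.0033), the serotonin transporter serT (−1.85, adjusted p = 0.012), the potassium channel Ork1 (1.96, adjusted p = 0.0029), the chaperone genes stv (−1.16) and CG7182 (0.91), the adenylyl cyclase gene rut (−1.41) and the homeobox gene Dr (−2.68). Dr, rut, stv and CG7182 are named because they belong to this count. Dr showed the same course as trpl, with 6.20 to 6.67 log2 in 50ND, 8.63 to 8.80 in 50D, 8.92 to 10.44 in 150ND and 9.16 to 9.71 in 150D. For serT no 50ND array was well above background, and with that group at its bound the change was −1.73 log2.

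In the remaining lists few values stood out. Of 8 carbohydrate and alcohol genes only Adh was called, CG12030 (UDP-galactose epimerase) had a change of 0.84 ± 0.37 (adjusted p = 0.35) and Gapdh2 one of 0.38 ± 0.43, which became −0.02 without 150ND replicate c. Among amine and pigment genes, 10 in number, no change passed. Dat, an arylalkylamine N-acetyltransferase gene, changed by 1.13 ± 0.50 (adjusted p = 0.35) and the serotonin receptor gene 5-HT7 by 0.68 ± 0.47. The 7 ribosomal and translation genes had changes of −0.11 to 0.63, led by tko (0.63), eIF-4a (0.45) and RpL11 (0.39). Changes in the 11 genes of the insulin pathway and stress kinases lay between −0.36 and 0.35. In that list Thor, the translation inhibitor 4E-BP, had effects of 0.68 and 1.0, Pi3K92E changed by −0.36 and Mekk1 by 0.35. The list of 10 further ion channels, which holds neither CG34366 nor trpl, ran from Sh (−1.63 ± 0.89) to Ork1, with tipE at 1.14 ± 0.66, and none of the 10 was called. RNA-binding and editing genes (nonA 0.87, cpo −0.62 and Adar 0.40) and sex determination genes (fru 0.57, dsf 0.42 and ix 0.36) had no called change either.

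Among genes called at both ages in the same direction, the intervals of the change were wide. LanA, a laminin chain of the basement membrane, was 3.44-fold higher in diapausing females at 50 days and 4.88-fold at 150 days, with a change of 0.50 and a 95% interval of −0.99 to 2.0. drpr, an engulfment receptor gene, was 2.91-fold and 2.14-fold higher, with an interval of −1.15 to 0.27. CG6785 was 2.82-fold and 3.91-fold higher (−0.88 to 1.82), and it rose with age in both states, 5.94-fold in diapausing and 4.29-fold in non-diapausing females. Histone_H3.3A, a replacement histone gene, was 2.55-fold and 2.45-fold lower in diapausing females, and its change of 0.06 (−1.05 to 1.17) became −0.48 without 150ND replicate c. Of the other 7 genes of the ovary or maternal list none was called for the change.

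The integrin gene scb, in the list of cell surface and matrix genes, had effects of 1.54 at 50 days and 0.45 at 150 days and a change of −1.09 ± 0.60 (adjusted p = 0.52). The mean of the 3 muscle markers was 12.14 log2 or more on the 150D arrays, above 10.78 to 11.71 in 150ND, while 50D (11.55 to 12.56) and 50ND (11.35 to 12.10) overlapped. The array means of the 7 neuron markers were 5.73 to 6.10 log2 in 50ND, below 6.17 to 6.65 in 50D, while 150ND (5.76 to 6.57) and 150D (6.13 to 6.68) overlapped. Their median effect was 0.83 at 50 days and 0.18 at 150 days, or 0.54 without 150ND replicate c. The neuron markers did not move alike, since at 50 days 5 of the 7 effects were above 0. Of the 7, 1 was called higher and 1, cac (−1.50), lower, against 17.4% and 10.6% of all genes. The part of muscle and neuron levels in the results was not tested. The muscle genes Mhc (effects 0.75 and 1.15) and Act_42A (0.03 and 0.88) had changes of 0.40 ± 0.46 and 0.84 ± 0.39, and the chaperone Hsc70-4 one of 0.22 ± 0.32. None of these passed the test.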

How the data were processed

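Total RNA of 23 pools of 2 D. montana females was hybridized by the authors to a custom Agilent array, and the deposited scanner files (Feature Extraction 10.7.1.1) hold an intensity for each spot, linear and with background removed, that was not normalized across arrays. The authors also deposited a table of intensity, quantile-normalized with limma, which served as an alternative. Intensity has no read depth, and the number of arrays limits the precision. Groups were taken from the sample labels. The study describes 3 biological replicates, and p-values measure the spread between the arrays.

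Here the intensity of 14800 gene spots (1850 probes, 8 spots each) was taken to log2, quantile-normalized over the 23 arrays and averaged per probe without spots flagged as outliers, except where all 8 spots of a probe were flagged, as happened 43 times. Each gene was read from its brightest probe over the arrays, which gave 218 of the 219 genes. Probes named Dca stood for regucalcin, and the brightest probes of CG9747 and regucalcin carry names of the reverse-complement kind. Groups were compared with limma 3.58.1 (R 4.3.3, lmFit and eBayes) over all 23 arrays, with Benjamini-Hochberg adjustment over the 218 genes. The fit was tested on simulated data, where it called 40.8% of changes of 1.5 log2 and 79.8% of changes of 2.5 log2. Of its calls there 5.42% were false. A change of such a size that was not called can therefore have been missed. A change of the effect was called at an adjusted p under 0.05, a single effect also at 2-fold or more. A probe was well above background when over 0.5 of its spots on the array were. Bounds set a group with no such array at the lowest probe above background, or at its own signal if higher.

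Named genes were the 10 called genes with the largest change in each direction (filled to 5 by the smallest p), the 3 members of each of 13 functional lists with the largest change, genes the study names for overwintering or throughout diapause, and genes called at both ages in opposite directions. Members of a list described beyond these were added after their values were seen. The genes, lists and tests were chosen with earlier results of these data known. Scaling, background correction, the authors' table, the probe rule, a filter on dim probes, the arrays fitted, slide and replicate blocks and each array left out were tried as alternatives.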

Additional observations from a re-analysis of the deposited data

Results flagged for a closer look

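The 9 genes below had diapause effects that differed between 50 and 150 days by the test of the difference itself, an interaction contrast in limma at an adjusted p under 0.05. The change was 3.60 log2 for CG34366, 3.58 for ninaD, 3.50 for Jon25Bi and 3.20 for Adh. It was −3.47 log2 for CG9747, −2.64 for trpl, −2.40 for regucalcin, −1.55 for for and −1.37 for Hsr_omega. Groups of 3 arrays are too small for a test of single outlying arrays, and none was run.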

How the results depend on the processing

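The 9 called changes kept their sign in all 24 alternative settings, and Adh, CG9747 and trpl were called in each. The count of called changes (9, 4 higher and 5 lower) was 18 (7 and 11) with the authors' table. It was 22 (8 and 14) with normalization, probe choice and fit on the 12 arrays alone. The count was 19 (7 and 12) without 7ND replicate c in the spread. With 150ND replicate c left out as well, a setting added after the data were seen, it was 21 (9 and 12). Each of these counts holds all 9 genes. With the mean of all probes it was 5 (2 and 3), of which 4 were among the 9, and with spike-in scaling 6 with 2 lower. Whether the reverse-complement probes in that mean lowered the count was not tested. With 1 array left out at a time the count ranged from 8 to 11, 3 to 5 higher and 5 to 7 lower. The remaining settings gave 8 to 11, among them 9 with the slide block. Without normalization between arrays the median change over all genes was −0.22 in place of 0.07. Whether the replicate letters pair the arrays was not settled. Deviations of arrays of the same letter correlated at −0.46 to 0.61, and 8 of 18 pairs were over 0.1. The correlations were 0.28, 0.48 and 0.61 between 50ND and 150ND and 0.31 to 0.38 between 50ND and 150D. Between 50ND and 50D they were −0.13, −0.46 and −0.06. With a replicate block 11 genes were called, desat1 and Dr in addition.

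The 61 genes called at 50 days became 39 on spike-in probes and 40 when a gene's probes were averaged, and 36 to 61 with 1 array left out (39 without 50ND replicate a, 36 without replicate b). The 21 called at 150 days became 6 with spike-in scaling, 34 with the authors' table and with the 12 arrays, 33 without 7ND replicate c and 58 without both arrays, and ranged from 7 to 39 with 1 array left out. Between 50D and 150D the 15 became 7 on the 75th percentile, 29 on spike-in probes and 8 when probes were averaged (7 to 15 with 1 array left out, 7 without 50D replicate c). Between 50ND and 150ND the 25 became 12 without normalization (13 to 29 with 1 array left out, 13 without 50ND replicate b and 17 without 150ND replicate c). The causes were not tested.

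Sign turned only in named genes whose change was not called. On the 75th percentile Gapdh2 was −0.0543, Pi3K92E 0.241, Mekk1 −0.0086 and Histone_H3.3A −0.31. Without normalization Gapdh2 was −0.212, Pi3K92E 0.0834, Mekk1 −0.166, Thor −0.0314, LanA −0.0704, Hsc70-4 −0.0457 and Histone_H3.3A −0.47. With spike-in scaling Pi3K92E was 0.38 and Histone_H3.3A −0.17, and with the mean of all probes 5-HT7 was −0.15 and Mekk1 −0.18. With 150ND replicate c left out, with or without 7ND replicate c, Gapdh2 was −0.024, ix −0.0443 and Histone_H3.3A −0.479. With 1 array left out at a time the changes ranged from −0.024 to 0.666 for Gapdh2, −0.0333 to 0.586 for Thor, −0.0443 to 0.659 for ix, −0.112 to 0.861 for CG6785 and −0.479 to 0.355 for Histone_H3.3A. Probes at the ceiling of 17.36 (Hsp26) or near background (ninaD, serT) limit the size of a fold.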
